A study of Mus musculus with 9 samples.

Results

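The copies described here are the old transposon inserts of the mouse genome that were listed with reads in RNA-seq of embryonic stem cells (ESCs) and their differentiated progeny. They were chosen by annotation alone, as every entry of the repeat table of class SINE and family MIR, class LINE and family L2, or class DNA. They number 2290 of the 38385 listed repeat copies, or 5.97%, with 740 MIR, 489 L2 and 1061 DNA transposon copies. The 6 entries of the doubtful class "DNA?" were left out. Expression was measured in 9 libraries, 1 for each of 3 lines at days 0, 2 and 4, so no condition has a replicate. WT is the J1 ESC line with both Dnmt1 alleles intact. 1KO is the Dnmt1-/- line made from J1. 1KO+1CI is 1KO carrying a transgene for catalytically inactive DNMT1, driven by the CAG promoter and linked to a zeocin resistance gene, and isolated as clones. All lines share the J1 background, and the transgene is compared with 1KO itself. Day 0 cells were ESCs grown on mitomycin C-treated mouse embryonic fibroblasts with LIF. The later days followed removal of feeders on gelatin, formation of embryoid bodies without LIF and adherent culture towards epiblast-like cells.

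MIR elements are ancient SINEs with a tRNA-derived head, and they were copied by the machinery of L2, a LINE that is itself no longer active in mammals. DNA transposons move by cutting and pasting with a transposase that binds their inverted terminal repeats. In mouse they are fossils, most of them short hAT-Charlie or TcMar-Tigger remnants that have lost the transposase gene. Such inserts are shared widely among mammals or, for names such as URR1A, URR1B and RMER30, are known from rodents. Many lie inside introns or untranslated regions, so a read over one can belong to a longer host transcript. Young retroelements such as IAPEz, an endogenous retrovirus, are by contrast known to be kept silent by DNA methylation. The age of a copy was not measured here, since the table gives no divergence from the consensus.

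The table gives no position for a copy, so no copy was placed in a gene and no sequence is shown. A copy is named by its repeat and the copy number in the table, for example Ricksha_c dup7. The unit is FPKM, the reads per kilobase of the copy scaled to library size. Depth recovered from the steps between FPKM values was 20300000 to 27900000 reads per library. For 2237 of the copies the reads themselves could be recovered, and the median copy was 153 bases long with 7.56 reads per library on average. Reads were sought up to 80 in the lowest library. Copies with more, such as MIRb dup327, are thus left out wherever copies are grouped by reads. The MIR copies had a median length of 128 bases, the L2 copies 165.5 and the DNA transposons 185. Of these 2237 copies, 60.8% had fewer than 10 reads on average, against 58.5% over all listed copies. No listed value was 0, and 8.11% of the values of these copies equalled 1 read. Whether copies without reads were dropped or set to that floor is not given in the sources used here, so a value of 1 read is an upper level rather than a count.

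The labels were checked on genes. In FPKM, Dnmt1 ranged over 48.5 to 80.4 for the WT libraries, 12.3 to 17.4 for 1KO, whose locus still gave reads, and 129 to 315 for 1KO+1CI. The 6 ESC markers were all listed and summed to 896 to 1708 FPKM over the libraries, much of it from Pou5f1. From day 0 to day 4 in WT, Pou5f1 rose from 632 to 1008 FPKM and the others fell. Sox2 went from 206 to 83.5 FPKM, Nanog from 163 to 56.8 and Zfp42 from 266 to 31.6. Esrrb went from 96.5 to 3.81 FPKM and Klf4 from 30.3 to 0.75. The 4 epiblast markers summed to 115 to 138 FPKM at day 0 and 376 to 560 at day 4. The 7 feeder fibroblast markers used had a day 0 sum of 111 FPKM in WT, then 229 in 1KO, then 261 in 1KO+1CI, and of 14.5 to 38.1 FPKM on the later days. The 4 primitive streak markers had day 4 sums of 11.5 FPKM in WT, then 67.9 in 1KO, then 74.5 in 1KO+1CI. For the 5 primitive endoderm markers the day 4 sums were low, at 2.87 FPKM in WT, then 5.12 in 1KO, then 8.48 in 1KO+1CI. Among them Gata4 was lower in 1KO, at 0.96 FPKM, than in WT, at 1.56. The part of these cell mixtures in the results below was not tested. In bulk RNA, fewer cells that carry a transcript and less of it per cell cannot be told apart.

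Old inserts kept a near constant level across the 9 libraries. The median MIR copy lay between 2.29 and 3.00 FPKM, the median L2 copy between 1.82 and 2.34, and the median DNA transposon copy between 1.55 and 2.06. The highest library was thus 1.31-fold over the lowest for MIR, 1.29-fold for L2 and 1.33-fold for DNA transposons. Over all listed copies that fold was 1.40, for the SINE B1 it was 1.35 and for the LINE L1 2.78. The 426 IAPEz-int copies spanned 67.3-fold, from 0.35 to 23.3 FPKM. Together the old inserts held 4.12% to 4.55% of the summed FPKM of the repeat table.

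By library, MIR stood at a median of 2.85, 3.00 and 2.44 FPKM in WT at days 0, 2 and 4. The values were 2.29, 2.77 and 2.64 FPKM in 1KO, and 2.41, 2.84 and 2.47 in 1KO+1CI. L2 stood at 2.07, 2.27 and 1.82 FPKM in WT, then 2.01, 2.34 and 1.83 in 1KO, then 2.09, 2.34 and 1.89 in 1KO+1CI. For DNA transposons the medians were 1.90, 2.06 and 1.70 FPKM in WT, then 1.55, 1.92 and 1.77 in 1KO, then 1.81, 1.98 and 1.66 in 1KO+1CI. As deposited, day 2 was the highest day of each line in all 3 classes, and for MIR and DNA transposons the lowest library of the 9 was 1KO at day 0. Median-ratio factors over genes (0.963 to 1.01) moved 0 of the 54 class sums and medians by over 0.1 in log2. Scaling over the repeat copies themselves turned the order of days and libraries. After each library was divided by its median ratio over all repeat copies (0.884 to 1.15), the MIR medians were 2.88, 2.61 and 2.71 FPKM in WT, then 2.59, 2.42 and 2.80 in 1KO, then 2.46, 2.48 and 2.71 in 1KO+1CI, and no line of any class was highest at day 2. The lowest library was then 1KO at day 2 for MIR, at 2.42 FPKM, and for DNA transposons, at 1.68, and the fold between the highest and lowest library was 1.19 for MIR, 1.17 for L2 and 1.14 for DNA transposons, beside 1.11 over all listed copies. The 1KO library of day 0 was also the deepest, at 27900000 reads, and as deposited it held the lowest value of 351 copies and the highest of 141. WT at day 2 held the highest value of 421 copies, or 18.4%. These counts were not made over all listed copies, so they are not read as particular to old inserts. Over all listed copies WT at day 2 also had the highest median, at 1.97 FPKM. The 1KO library of day 0 was at 1.49 there, and WT at day 4 was lowest, at 1.41.

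**Figure D1:**
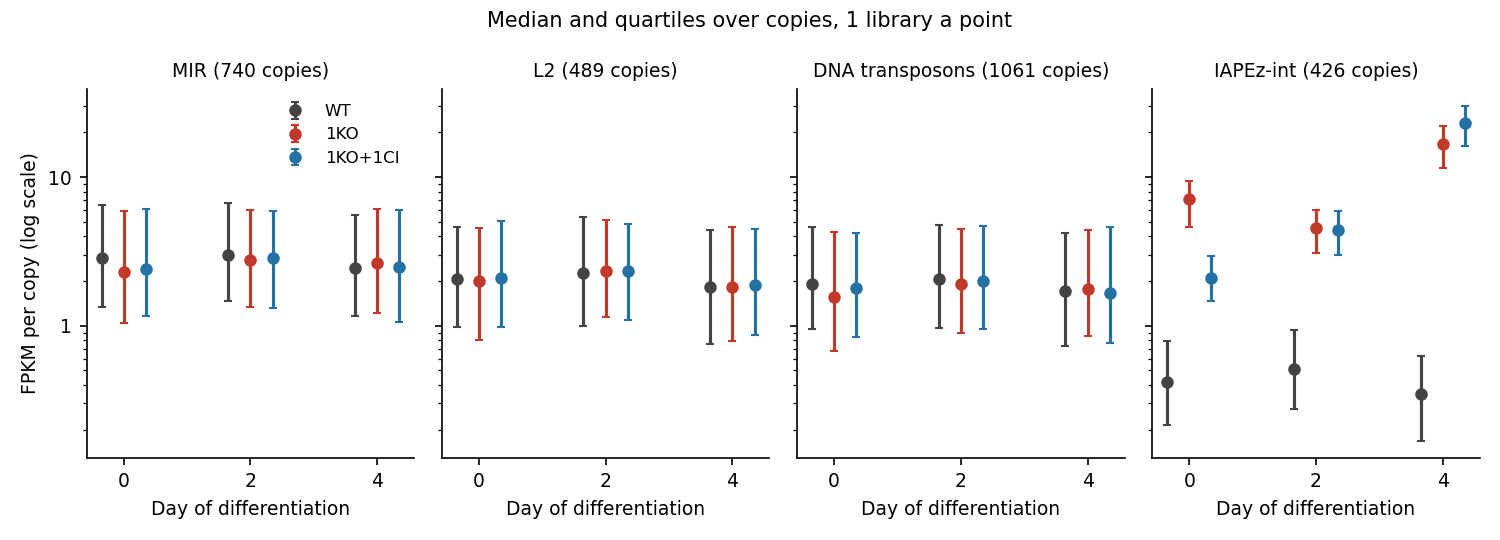
Median FPKM per copy (log scale, points) with quartiles over copies (bars) against day of differentiation, for MIR, L2, DNA transposons and, for comparison, IAPEz-int. Each point is 1 library; the 3 classes of old inserts stay between 1.55 and 3.00 FPKM in every line, while the IAPEz-int median runs from 0.35 to 23.3 FPKM.

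The copies fall into 145 repeat names, whose median FPKM differed. FPKM divides reads by the length of a copy, and the part of length in this order was not tested. By class, the median copy had 7.67 reads per library for MIR, 7.61 for L2 and 7.33 for DNA transposons. The median lengths were 128, 165.5 and 185 bases. Among the 8 names with at least 100 copies, MIR3 at 3.34 to 4.90 FPKM over the libraries and MIRc at 2.71 to 3.85 FPKM had the highest medians, and these ranges lay above those of the other 6 names. The medians of MIRb ran from 1.94 to 2.65 FPKM and those of the repeat named MIR from 1.68 to 2.48. L2 ran from 1.47 to 2.28 FPKM and L2a from 1.32 to 1.97. The rodent repeat URR1B ran from 1.18 to 1.92 FPKM, and URR1A, at 1.02 to 1.39, was the lowest of the 8 in every library. Neighbours in this order overlapped within each of these groups, and the range of URR1A lay below those of all names but L2a and URR1B. These 8 names hold 1314 of the copies, and 45 names have 1 copy each.

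A few copies had levels far above the rest. MIRb dup327 averaged 477 FPKM and L2a dup204 438 FPKM, each far above the median of its class. L2a dup204 was steady, at 441, 377 and 507 FPKM in WT, then 421, 437 and 448 in 1KO, then 418, 423 and 470 in 1KO+1CI at days 0, 2 and 4. The lines overlapped in it completely. MIRb dup327 was less steady, at 631, 393 and 606 FPKM in WT, then 638, 334 and 567 in 1KO, then 449, 307 and 373 in 1KO+1CI, lowest at day 2 in every line. The next MIR copies by mean level were MIRc dup480 at 113 FPKM and MIRb dup881 at 101. The next L2 copies were L2 dup897 at 87.0 FPKM and L2 dup152 at 76.9. The 3 highest DNA transposon copies were Kanga11a dup12 at 106 FPKM, Charlie5 dup55 at 101 and Charlie6 dup3 at 84.7.

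The first comparison asks whether loss of DNMT1 changed the level of old inserts, as 1KO against WT on the same day. The old inserts moved little, and as the rest of the repeat table did. At day 0 the median difference of log2(FPKM + 1) over copies was -0.17 for MIR, -0.09 for L2 and -0.14 for DNA transposons, beside -0.10 over all listed copies. The quartiles of the MIR copies were -0.59 and 0.27, so the spread between copies far exceeded the shift. At day 2 the medians were -0.11 for MIR, -0.0085 for L2 and -0.04 for DNA transposons, beside -0.05 over all copies. At day 4 they were 0.04, -0.03 and 0.06, beside -0.0055. The IAPEz-int copies, on the same scale, were higher in 1KO by a median of 2.36, 1.75 and 3.59 at days 0, 2 and 4. With 1 library a condition these differences carry no test.

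The count of single copies that differed over 2-fold gave the same picture. Here and below, over 2-fold means a log2(FPKM + 1) difference over 1 either way. For copies at low FPKM this asks for more than a 2-fold change in FPKM itself. At day 0, 81 old inserts, or 3.54%, were over 2-fold higher in 1KO than in WT, beside 4.9% of all listed copies, and 191, or 8.34%, were over 2-fold lower, beside 6.82%. At day 2 these shares were 4.15% higher, beside 5.74%, and 5.76% lower, beside 5.09%. At day 4 they were 5.72% higher, beside 6.77%, and 4.32% lower, beside 3.76%. In the order MIR, L2 and DNA transposons, 26, 22 and 33 copies were higher at day 0 and 79, 35 and 77 lower. The surplus of lower copies at day 0 depended on which scaling was used. As deposited, 29.8% of the copies past 2-fold were higher in 1KO. This share was 30.7% with median-ratio factors over genes, and 44.3% after each library was rescaled by its median ratio over all repeat copies. The scaling over repeat copies moved the median over all listed copies at day 0 from -0.10 to -0.02.

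**Figure D2:**
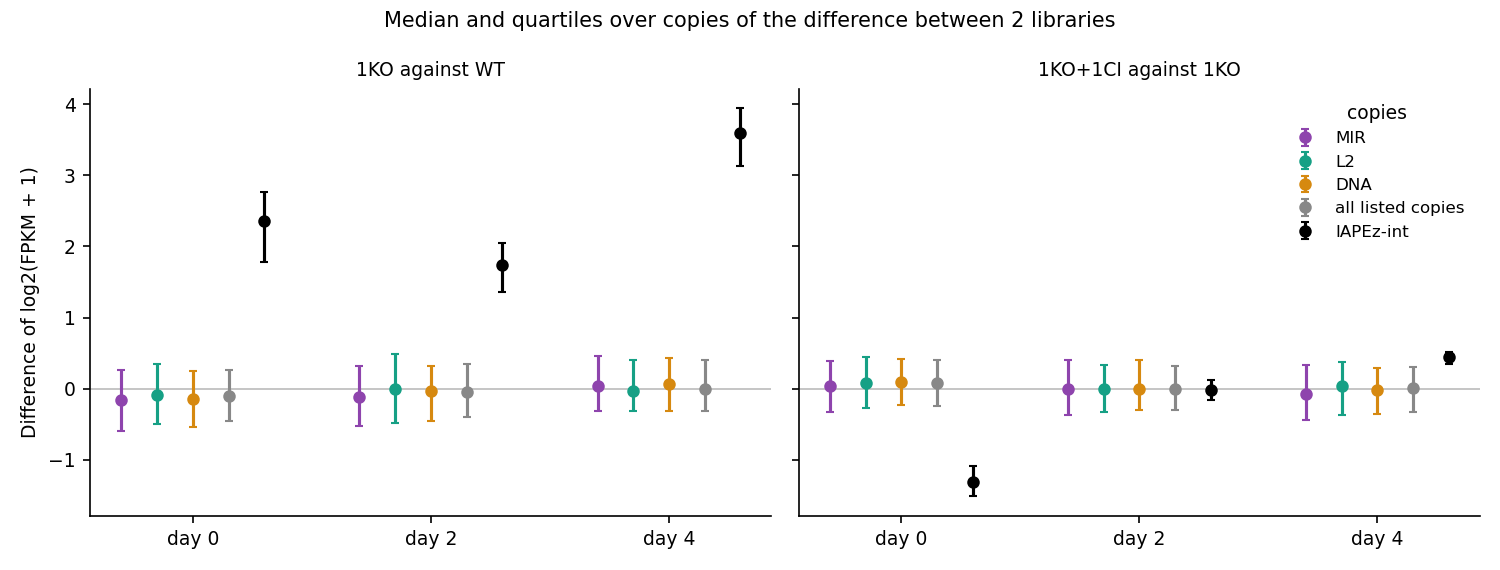
Median difference of log2(FPKM + 1) between 2 single libraries (points) with quartiles over copies (bars), for 1KO against WT (left) and 1KO+1CI against 1KO (right) at each day, over MIR, L2, DNA transposon, all listed and IAPEz-int copies. The medians of the 3 classes of old inserts lie between -0.17 and 0.09 and beside those of all listed copies, while IAPEz-int lies at 1.75 to 3.59 on the left and at -1.32 to 0.45 on the right.

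The second comparison asks what the inactive enzyme changed in cells without DNMT1, as 1KO+1CI against 1KO. It uses the same 1KO libraries as the comparison above, so the values of both are given side by side and not related to each other. At day 0 the medians were 0.04 for MIR, 0.08 for L2 and 0.09 for DNA transposons, beside 0.08 over all listed copies. At day 2 they were -0.0099, -0.0103 and -0.0035, beside -0.0060. At day 4 they were -0.08, 0.03 and -0.02, beside 0.0061. IAPEz-int was lower in 1KO+1CI at day 0, at a median of -1.32, and stood at -0.03 at day 2 and 0.45 at day 4.

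At day 0, 110 old inserts, or 4.80%, were over 2-fold higher in 1KO+1CI than in 1KO, beside 4.57% of all copies, and 61, or 2.66%, were over 2-fold lower, beside 3.69%. At day 2 the shares were 4.32% higher, beside 3.8%, and 3.97% lower, beside 3.77%. At day 4 they were 4.19% higher, beside 3.39%, and 4.59% lower, beside 4.2%. At day 0, 64.3% of the copies past 2-fold were higher in 1KO+1CI as deposited, and 68.9% with median-ratio factors over genes. After rescaling over all repeat copies the share was 45.6%, so that scaling alone turned the direction of the surplus. Against WT, the 1KO+1CI copies had a median of -0.08 at day 0, -0.03 at day 2 and 0.02 at day 4.

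Levels were also averaged by family, as the study summarised its repeats. For MIR, L2 and all DNA transposons, log2 of the mean FPKM plus 1 differed by -0.11 to 0.05 in both comparisons at every day. A threshold of 0.5 in either direction was used for families and names. Of the 20 names with at least 20 copies, 0 passed it in either comparison at any day, beside 7.76% of all names of that size in 1KO against WT and 1.63% in 1KO+1CI against 1KO. In 1KO against WT these names ran from -0.23 (MER2) to 0.10 (MER3) at day 0, from -0.25 (Tigger7) to 0.15 (RCHARR1) at day 2, and from -0.17 (MER58A) to 0.26 (RCHARR1) at day 4. In 1KO+1CI against 1KO they ran from -0.17 (MIRb) to 0.28 (RCHARR1) at day 0, from -0.06 (URR1A) to 0.17 (MER3) at day 2, and from -0.25 (RMER30) to 0.19 (MER3) at day 4. The names past the threshold were small ones: of the 125 names with fewer than 20 copies, 11 (8.80%, beside 8.16% of all names of that size) were over 0.5 in 1KO against WT at day 0, and 30 (24.0%, beside 15.1%) were under -0.5. At day 2, 13 (10.4%, beside 9.28%) were over and 19 (15.2%, beside 10.7%) under. At day 4, 22 (17.6%, beside 10.8%) were over and 12 (9.60%, beside 8.78%) under. In 1KO+1CI against 1KO, 18 of these small names (14.4%, beside 8.91%) were over 0.5 at day 0 and 11 (8.80%, beside 7.53%) under -0.5. At day 2 the counts were 16 over (12.8%, beside 8.78%) and 13 under (10.4%, beside 8.16%), and at day 4 they were 8 over (6.40%, beside 8.41%) and 12 under (9.60%, beside 7.03%).

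Of the 15 DNA transposon families, hAT-Charlie has 741 copies and TcMar-Tigger 213, together 89.9% of the DNA transposon copies. hAT-Tip100 has 29 copies, TcMar-Mariner 21, TcMar-Tc2 15, hAT 13 and hAT-Blackjack 12, and the other families 5 or fewer. The family MuDR had differences of 1.21, 0.98 and 1.14 in 1KO against WT at days 0, 2 and 4. It consists of the 2 Ricksha_c copies taken up below. In 1KO+1CI against 1KO the MuDR family differed by -0.24, -0.11 and -0.33.

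Whether a copy passed 2-fold went with the reads behind it. In 1KO against WT at day 0, 17.7% of the old inserts with 5 to 10 reads on average passed in either direction, 16.1% of those with 10 to 20, 10.2% of those with 20 to 50 and 3.45% of those with at least 50. Below 5 reads the share was 7.31%. Over all listed copies the shares at day 0 were 14.2% with 5 to 10 reads, 12.4% with 10 to 20, 7.81% with 20 to 50 and 10.6% below 5. On that day old inserts thus lay above the table at 5 to 50 reads and below it under 5. The later days did not keep this order. With 5 to 10 reads 12.1% of old inserts passed at day 2, beside 13.9%, and below 5 reads 9.24% passed at day 4, beside 8.86%. Among copies with at least 50 reads, 9.16% of all listed copies passed, and 5 of the 145 old inserts did. At days 2 and 4 the share of these 145 was 3.45% and 2.76%, beside 7.78% and 9.59% of all listed copies. With at least 20 reads, 36 of 449 old inserts passed at day 0 (8.02%, beside 8.29%). On the later days 33 passed at day 2 (7.35%, beside 6.88%), then 27 at day 4 (6.01%, beside 7.62%).

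**Figure D3:**
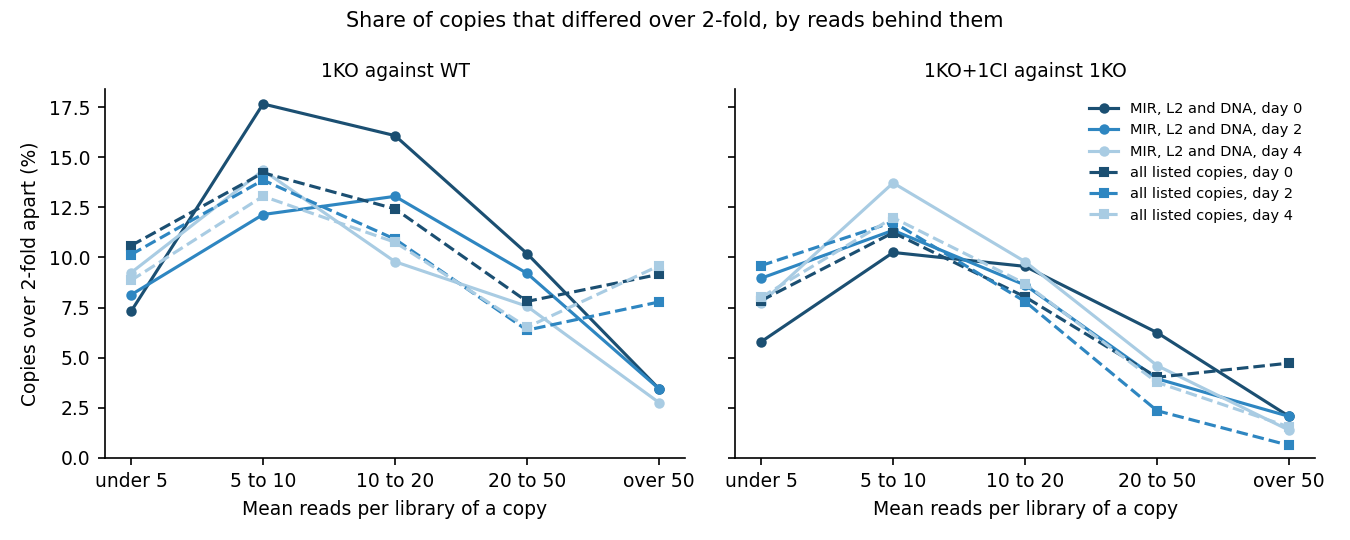
Share of copies over 2-fold apart on the log2(FPKM + 1) scale (percent) against mean recovered reads per library of a copy. Left is 1KO against WT and right is 1KO+1CI against 1KO. Solid lines are MIR, L2 and DNA transposon copies, dashed lines all listed copies, and shades mark the day. In 1KO against WT at day 0 the share of old inserts falls from 17.7% at 5 to 10 reads to 3.45% at 50 or more.

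An additive model of line and day was fitted (limma on all libraries, adjusted p from Benjamini-Hochberg over all 38385 copies). Its spread is what line and day leave over, with 4 residual degrees of freedom, drawn towards that of other copies of like level (8.41 prior degrees of freedom). The days of a line are not cultures of 1 condition, so the p-values measure whether a line differed steadily over the days. Between 1KO and WT it called 2 old inserts higher (0.0873%) and 3 lower (0.131%), beside 1.12% higher and 0.0599% lower of all listed copies. Of the 426 IAPEz-int copies, 309 were called higher. Unadjusted p was under 0.05 for 178 old inserts, or 7.77%, against 9.14% of all copies. With 1 day left out, 0 or 1 old insert was called. Of the 2290, 116 to 189 then had an unadjusted p under 0.05, beside 2673 to 3511 of all 38385 copies. The smaller fit lost calls over the whole table too, where the 452 became 0 without day 0, 285 without day 2 and 1 without day 4. Without the trend of the spread on the level, the fit called 0 copies of the whole table. An unadjusted p was then under 0.05 for 209 of 2290 old inserts, beside 3663 of all 38385 copies.

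The pair called higher were Ricksha_c dup7 and dup8, copies of a MULE-like DNA transposon whose numbers are consecutive. Ricksha_c dup8 was at 47.9, 25.8 and 25.1 FPKM in WT, then 109.8, 51.2 and 57.7 in 1KO, then 94.2, 46.5 and 46.3 in 1KO+1CI at days 0, 2 and 4. Ricksha_c dup7 was at 46.0, 24.3 and 23.6 FPKM in WT, then 109.6, 49.4 and 52.2 in 1KO, then 90.9, 46.3 and 40.8 in 1KO+1CI. On each day both copies were lowest in WT and highest in 1KO. The lower of the pair was at 0.881 to 0.998 of the other in every library, and whether they share reads was not tested. In the fit, the difference between 1KO and WT was 1.11 for dup7 (SE 0.18, adjusted p = 0.019) and 1.10 for dup8 (SE 0.18, adjusted p = 0.019). With 1 day left out it stayed between 1.05 and 1.17 for dup7 and between 1.07 and 1.17 for dup8. Neither was then called, at a limma adjusted p of 0.0741 to 0.152 for dup7 and 0.0672 to 0.133 for dup8.

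The copies called lower were MIRc dup100, Tigger5b dup33 and L2a dup637. MIRc dup100 was at 16.7, 23.7 and 35.8 FPKM in WT, then 4.34, 5.29 and 1.34 in 1KO, then 7.23, 9.02 and 5.49 in 1KO+1CI. The WT values lay above all others. Its ratio of 1KO to WT was 0.259 at day 0 (95% counting interval 0.122 to 0.513), 0.223 at day 2 (0.105 to 0.430) and 0.0374 at day 4 (0.00754 to 0.114). The interval is an exact Clopper-Pearson one, covers counting error only and does not allow for the choice of the copy from these values. Tigger5b dup33 was at 1.78, 2.10 and 1.75 FPKM in WT, which is 5, 7 and 5 reads, and at the floor of 1 read in all 6 libraries of the other lines. A constant floor gives those lines no spread of counts, so the p-values of this copy are not read as evidence of a change. L2a dup637 was at 4.93, 6.95 and 2.59 FPKM in WT and 0.72, 0.96 and 0.89 in 1KO, with 1KO+1CI between them at 2.56, 2.85 and 2.00. The fitted differences were -2.56 for MIRc dup100 (SE 0.38, adjusted p = 0.019), -1.13 for Tigger5b dup33 (SE 0.19, adjusted p = 0.019) and -1.57 for L2a dup637 (SE 0.33, adjusted p = 0.0428). With 1 day left out they ran from -2.98 to -1.85 for MIRc dup100, from -1.17 to -1.10 for Tigger5b dup33 and from -1.90 to -1.35 for L2a dup637. MIRc dup100 was then called without day 2 alone (limma adjusted p = 0.0345), and Tigger5b dup33 and L2a dup637 in none of these fits. Of the 5 called copies, MIRc dup100 alone had at least 20 recovered reads on average, and it was also called in the limma fit of such copies (adjusted p = 0.00582). For both Ricksha_c copies, at 23.6 to 109.8 FPKM, the reads were not recovered, so they could not enter that fit.

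Between 1KO+1CI and 1KO the fit called 0 old inserts in either direction, beside 0.00261% higher and 0.00261% lower of all listed copies. Unadjusted p was under 0.05 for 112 old inserts, or 4.89%, against 4.51% of all copies. The 5 lowest were those of MER104 dup8, MIRb dup2165, L2b dup188, L2c dup73 and MIR3 dup470, each with an adjusted p of 0.995 in the limma fit. MER104 dup8 was at 0.99, 0.33 and 0.30 FPKM in 1KO and 2.61, 3.56 and 3.41 in 1KO+1CI, and at 2.02, 1.42 and 0.33 in WT.

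Between 1KO+1CI and WT, a contrast that shares the WT libraries with the one above, 3 old inserts were called higher and 2 lower, beside 0.727% higher and 0.0625% lower of all listed copies. L2c dup73 was at 28.5, 31.6 and 32.3 FPKM in WT, then 32.8, 45.4 and 42.7 in 1KO, then 53.0, 76.5 and 69.5 in 1KO+1CI. Its 1KO+1CI values lay above every value of the other lines, with a difference of 1.07 against WT (SE 0.19, adjusted p = 0.0366). The other pair called higher was Ricksha_c dup8 at 0.88 (SE 0.18, adjusted p = 0.0486) and dup7 at 0.88 (SE 0.18, adjusted p = 0.0499). MIR dup1597 was lower, at 8.30, 6.68 and 3.88 FPKM in WT, then 2.90, 3.09 and 1.08 in 1KO, then 2.05, 1.90 and 0.40 in 1KO+1CI, with a difference of -1.61 (SE 0.31, adjusted p = 0.0432). Tigger5b dup33, at the floor of 1 read in every 1KO+1CI library, differed by -1.10 (SE 0.19, adjusted p = 0.0366). With 1 day left out, 0 of these 5 remained called. An unadjusted p was then under 0.05 for 139 to 207 of 2290 old inserts, beside 2932 to 3514 of all 38385 copies. The 303 calls of the whole table became 26 without day 0, 13 without day 2 and 27 without day 4. The difference of L2c dup73 then stayed between 0.98 and 1.17, and that of MIR dup1597 between -1.71 and -1.51.

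**Figure D4:**
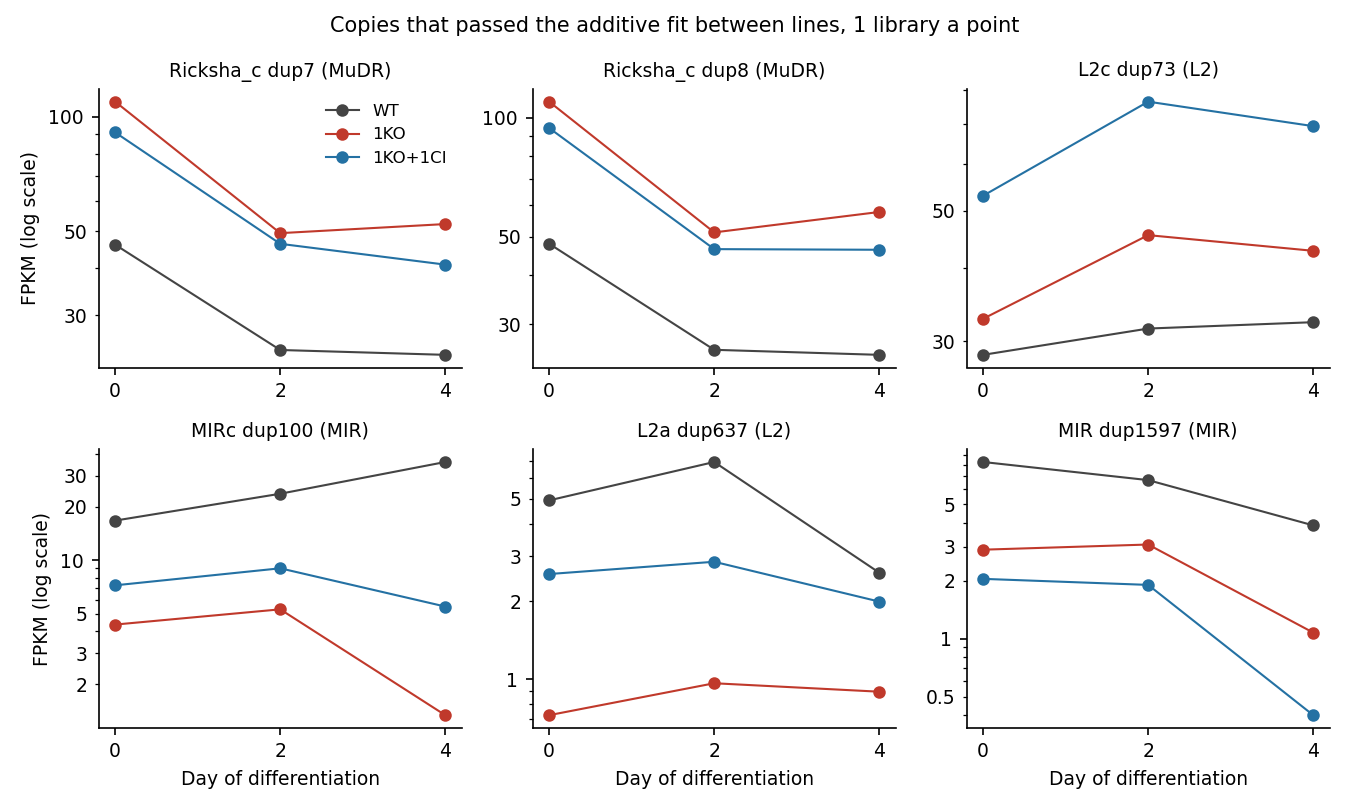
FPKM (log scale, each panel with its own range) against day of differentiation for 6 copies called between lines in the additive fit; each point is 1 library and lines join the libraries of a cell line. WT is lowest on each day in both Ricksha_c copies and in L2c dup73, and highest on each day in MIRc dup100, L2a dup637 and MIR dup1597.

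Without the fit, few old inserts were over 2-fold apart on the log2(FPKM + 1) scale on all 3 days. In 1KO against WT, 3 of 2290 were higher, or 0.131%, beside 1.33% of all listed copies, and 3 were lower, beside 0.0756%. The 3 higher were L2b dup828, MIRc dup5 and MIR3 dup199. L2b dup828 was at 0.38, 0.64 and 0.74 FPKM in WT and 2.22, 4.44 and 3.43 in 1KO. MIRc dup5 was at 0.40, 1.36 and 1.58 FPKM in WT and 2.96, 4.33 and 5.48 in 1KO. These are low values, with WT near the floor of 1 read. The 3 lower were MIRc dup100, Tigger5b dup33 and MIR3 dup119. In 1KO+1CI against 1KO, 0 old inserts passed as higher on all 3 days, beside 0.0182% of all copies. MIRb dup2165 was lower, beside 0.0234%. In FPKM itself, some low copies were over 2-fold apart on each day without passing on this scale. Such copies were L2a dup637, lower in 1KO than in WT, and MER104 dup8, higher in 1KO+1CI than in 1KO. Of the IAPEz-int copies, 365 of 426 were higher in 1KO on every day.

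The largest differences on single days came from copies with few reads in at least 1 of the libraries compared. Of the 18 copy and day pairs with the 3 largest differences each way in 1KO against WT, the lower library had 3 reads or fewer in 13, and of the 18 in 1KO+1CI against 1KO in 17. In 1KO against WT the 3 highest differences were 2.17 to 2.43 at day 0 (MIRc dup563, L2a dup1225 and MER5B dup166), 2.25 to 2.39 at day 2 (MIRc dup207, MIR3 dup199 and MIRb dup923) and 2.19 to 3.00 at day 4 (MER5A dup165, L2a dup938 and MIR3 dup348). The 3 lowest were -2.13 to -1.99 at day 0 (L2a dup906, MER5A dup335 and L2c dup589), -2.59 to -2.13 at day 2 (MIR dup2205, MIR dup1898 and MIR dup64) and -3.98 to -1.90 at day 4 (MIRc dup100, MIR3 dup119 and MamRep38 dup1). No copy was in these sets on more than 1 day. In 1KO+1CI against 1KO the 3 highest were 1.99 to 2.25 at day 0 (MIRc dup4, L2a dup273 and MIR3 dup128), 2.00 to 2.28 at day 2 (MIR dup2205, MIR3 dup404 and L2c dup519) and 1.76 to 1.92 at day 4 (MER104 dup8, L2c dup601 and MIRb dup576). The 3 lowest were -2.51 to -1.44 at day 0 (MIRb dup1624, MIRc dup746 and URR1A dup226), -1.83 to -1.72 at day 2 (MIR3 dup470, L2c dup465 and MIRb dup867) and -2.68 to -1.66 at day 4 (MIRc dup1749, MER5A1 dup196 and URR1B dup58).

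Values are given for the 1KO against WT copies of these sets with the largest differences at days 4 and 0. The copies were picked by these same differences, and the counting intervals do not allow for that choice. At day 4, MIR3 dup348 was at 2.18 FPKM in WT, then 24.5 in 1KO, then 30.5 in 1KO+1CI, a ratio of 1KO to WT of 11.2 (counting interval 4.57 to 35.9). L2a dup938 was at 0.87 FPKM in WT, then 13.0 in 1KO, then 9.86 in 1KO+1CI at day 4, a ratio of 15.0 (5.58 to 56.6). At the earlier days both lay between 0.19 and 2.66 FPKM in all 3 lines. At day 0, MER5B dup166 was at 1.62 FPKM in WT and 13.1 in 1KO, a ratio of 8.08 (2.94 to 31.0). L2a dup1225 was at 1.12 FPKM in WT and 9.07 in 1KO. MIRc dup563 was at 1.34 FPKM in WT, then 9.51 in 1KO, then 14.3 in 1KO+1CI at that day. The summed feeder markers at day 0 and the primitive streak markers at day 4 were also higher in the 2 mutant lines, and their part in these copies was not tested.

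Between day 4 and day 0 the old inserts had shares near those of the whole table, while single copies changed strongly. In WT, 114 old inserts, or 4.98%, were over 2-fold higher at day 4 than at day 0, beside 3.96% of all copies, and 223, or 9.74%, were lower, beside 8.23%. In 1KO the shares were 7.86% higher, beside 7.7%, and 5.55% lower, beside 5.57%. In 1KO+1CI they were 7.55% higher, beside 7.28%, and 8.78% lower, beside 7.96%. The median difference was -0.10 for MIR, -0.08 for L2 and -0.02 for DNA transposons in WT, then 0.11, 0.05 and 0.10 in 1KO, then 0.04, -0.06 and 0.0047 in 1KO+1CI. Over the 9 libraries, the line accounted for 22.2% of the sum of squares over the old inserts, the day for 41.5% and the rest for 36.3%. For all listed copies the shares were 26.8%, 39.8% and 33.4%, and in IAPEz-int the line accounted for 65.8%.

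The fit called 36 old inserts between day 4 and day 0, 12 of them higher (0.524%, beside 0.43% of all copies) and 24 lower (1.05%, beside 1.04%). By class, 2 MIR copies rose and 7 fell, 1 L2 copy rose and 7 fell, and 9 DNA transposon copies rose and 10 fell. The feeder markers fell over the same days, from a sum of 111 to 261 FPKM at day 0, as given above, and their part in these calls was not tested.

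Between day 2 and day 0 the well covered old inserts with recovered reads had smaller medians than all listed copies of that depth. Among copies with at least 50 recovered reads, the median difference of the old inserts was 0.0061 in WT, then -0.01 in 1KO, then 0.11 in 1KO+1CI. Over all listed copies of that depth it was 0.41, 0.32 and 0.34. Copies with too many reads to be recovered are in neither group. Over copies of any depth the medians were 0.06, 0.12 and 0.07, beside 0.12, 0.19 and 0.12. In the fit over all copies, 4 old inserts were called higher at day 2 (0.175%, beside 0.0782%) and 3 lower (0.131%, beside 0.0964%), and an unadjusted p was under 0.05 for 14.5% of them and 19.7% of all copies. When the fit was limited to the 8490 copies with at least 20 reads, a limit set after seeing the data, 24 of 449 old inserts were called higher (5.35%, beside 29.5%) and 18 lower (4.01%, beside 3.78%). With the libraries also rescaled over repeat copies, 8 old inserts were called higher and 40 lower, beside 1787 and 613 of the 8490. The gap between old inserts and the rest was not tested.

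Tigger19a dup40, a copy of a TcMar-Tigger element, was at 2.71, 17.0 and 14.5 FPKM in WT, then 1.42, 17.8 and 15.1 in 1KO, then 2.34, 16.8 and 14.1 in 1KO+1CI. All 3 lines were low at day 0 and high at both later days, with a day 2 difference of 2.55 (SE 0.27, adjusted p = 0.00527) and a day 4 difference of 2.32 (adjusted p = 0.00158). L2a dup1576 was at 11.2, 10.5 and 55.3 FPKM in WT, then 10.2, 37.8 and 106.4 in 1KO, then 8.47, 47.7 and 107 in 1KO+1CI. It rose by day 4 in every line (3.00, SE 0.36, adjusted p = 0.00169), and at day 2 the WT library was the lowest. Kanga11a dup12, of the TcMar-Tc2 family, was at 39.4, 62.5 and 198 FPKM in WT, then 42.6, 146 and 156 in 1KO, then 44.6, 146 and 120 in 1KO+1CI, a rise of 1.85 by day 4 (SE 0.29, adjusted p = 0.0069). It carried the difference of its family of 15 copies, which was 1.43 in WT, then 1.26 in 1KO, then 0.78 in 1KO+1CI between days 4 and 0.

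MIR3 dup126 was at 6.11, 1.29 and 1.00 FPKM in WT, then 15.3, 1.99 and 0.46 in 1KO, then 16.7, 6.38 and 1.55 in 1KO+1CI, a difference of -2.70 at day 4 against day 0 (SE 0.37, adjusted p = 0.00381). Its day 0 level was higher in both mutant lines than in WT. MER20 dup463, a hAT-Charlie copy, was at 12.2, 12.4 and 2.10 FPKM in WT, then 7.18, 7.16 and 1.66 in 1KO, then 8.18, 5.89 and 0.62 in 1KO+1CI, and fell between days 2 and 4 in each line (day 4 difference -2.07, SE 0.30, adjusted p = 0.00481). MIRc dup1047, a well covered copy, was at 91.1, 104 and 42.0 FPKM in WT, then 71.7, 75.9 and 36.7 in 1KO, then 72.7, 77.9 and 36.3 in 1KO+1CI. It showed the same fall in each line, with a difference of -1.01 (adjusted p = 0.0112).

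**Figure D5:**
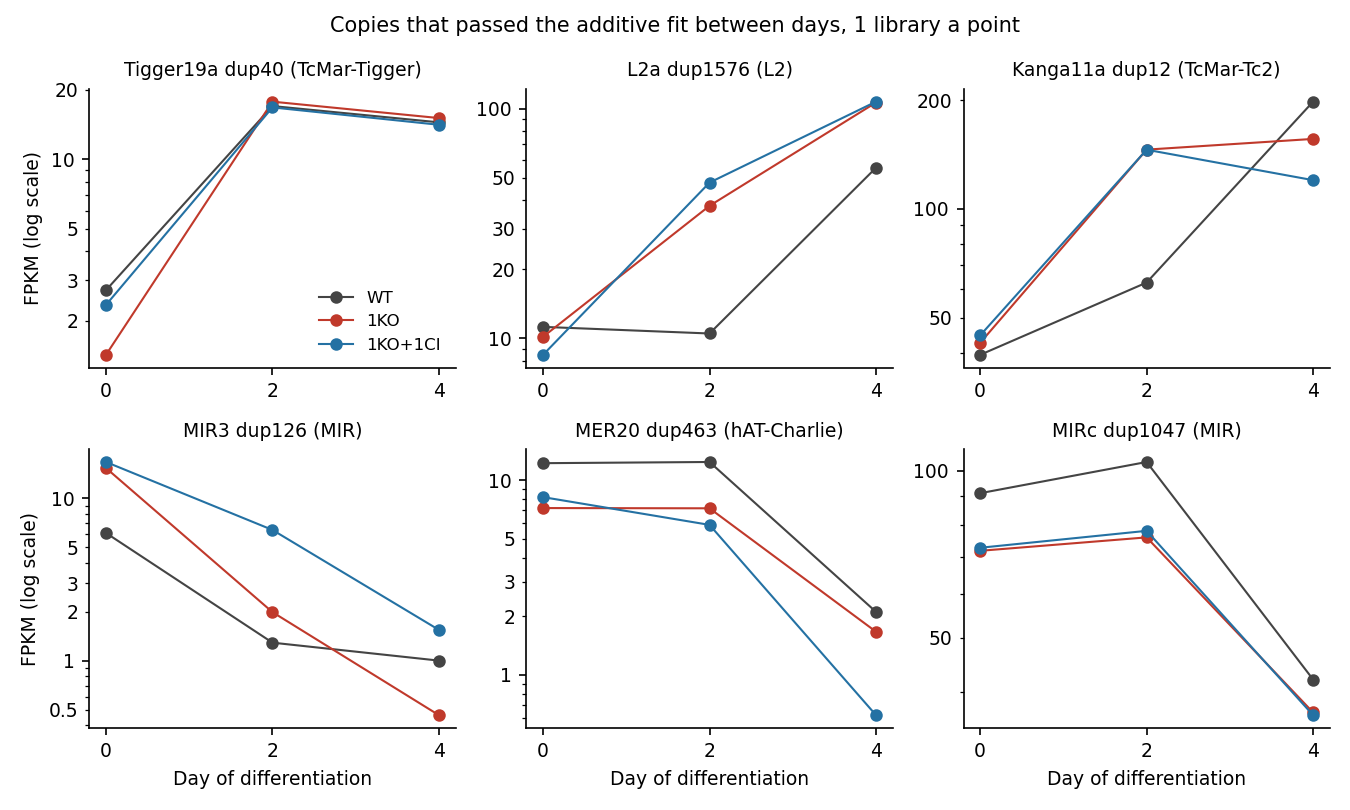
FPKM (log scale, each panel with its own range) against day of differentiation for 6 copies called between days in the additive fit; each point is 1 library and lines join the libraries of a cell line. In the upper panels each line is higher at day 4 than at day 0, in the lower panels each line is lower, and Tigger19a dup40 runs from 1.42 to 2.71 FPKM at day 0 to 14.1 to 15.1 at day 4.

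Some DNA transposons left working genes, since host proteins with a transposase fold or DNA-binding domain serve in chromatin and transcription. Of a list of 27 such genes, 24 were used here, and Rag1, Rag2 and Tigd4 were not analysed. Cenpb, the centromere protein related to the pogo transposase, was among the highest, at 23.0 to 35.9 FPKM, and Tigd5, a pogo-derived gene, the lowest on average, at 0.27 to 1.05 FPKM. Their median difference in 1KO against WT over days 0, 2 and 4 was -0.17, 0.03 and -0.06. On the log2(FPKM + 1) scale, 1 of the 24 was over 2-fold apart on any of these days, beside 6.77% of all genes. Thap3, one of the genes with the DNA-binding domain of the P element transposase, was that one, at 10.6 FPKM in WT and 3.75 in 1KO at day 0 (a log2 difference of -1.28). In 1KO+1CI against 1KO the medians were -0.05, 0.03 and -0.0084, and 0 of the 24 passed 2-fold on that scale, beside 1.53% of all genes. In FPKM itself, low genes could be over 2-fold apart without passing. In 1KO against WT at day 0, Pgbd1 and Pgbd5 were so on the lower side and Tigd5 on the higher side. At day 4 Tigd3 was so on the lower side. Zbed3, a gene with the BED finger found in hAT transposases, stood furthest above its day 0 level at day 2 in WT and 1KO, at 6.02 and 13.7 FPKM in WT, 6.36 and 15.6 in 1KO and 6.18 and 14.8 in 1KO+1CI at days 0 and 2. Thap3 went furthest the other way in WT, with a day 2 difference of -1.26.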

How the data were processed

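Values were taken as FPKM, per repeat copy and per gene, from the tables deposited by the authors. They list Trim Galore, HISAT2 with mm10, SAMtools and HOMER for paired-end reads of poly(A)-selected RNA. Tool versions, the strand setting and how multi-mapping reads were treated: not given in the sources used here. Unexplained, too, is the number in the column names of the 1KO+1CI line. The copies, lists and tests were chosen with earlier results of these data known, and 2 of the copies share a name and copy number.

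Differences of log2(FPKM + 1) between single libraries carry no test. The additive fit of line and day used limma 3.58.1 in R 4.3.3 (variance trend, 4 residual degrees of freedom, Benjamini-Hochberg over all 38385 copies, threshold 0.05) and was tested on simulated data. Python 3.11.15 was used with pandas 2.3.3 and scipy 1.17.1. Depth was recovered from FPKM values that are whole multiples of 1 step, taken as 1 read. Where both reads of a pair were counted, the true counting intervals are wider, and they compare libraries, not conditions. Named copies were the 3 highest by mean FPKM of each class, the 3 largest differences each way in each line comparison and day, and the 5 lowest adjusted p of each line contrast. Chosen after their values were seen were those named between days or on every day. Alternatives were other pseudocounts, minimums, scalings, thresholds and summaries, and leaving out each day.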

Additional observations from a re-analysis of the deposited data

Results flagged for a closer look

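Medians over copies pointed one way in one condition and the opposite way in another in 14 values. None of these differences was tested, since each condition has 1 library. The values are medians of log2(FPKM + 1) differences. For MIR copies, 1KO against WT was -0.17 at day 0 and 0.04 at day 4, and 1KO+1CI against 1KO was 0.04 at day 0 and -0.08 at day 4. For DNA transposon copies, 1KO against WT was -0.14 at day 0 and 0.06 at day 4, and 1KO+1CI against 1KO was 0.09 at day 0 and -0.02 at day 4. Between days 4 and 0, MIR stood at -0.1 in WT and 0.11 in 1KO, L2 at -0.08 in WT and 0.05 in 1KO, and DNA transposons at -0.02 in WT and 0.1 in 1KO. For MIR and DNA transposons, the values of 1KO against WT and the day values of WT and 1KO rest on the same 4 libraries. Rescaling over all repeat copies moved the median of all listed copies in 1KO against WT at day 0 from -0.10 to -0.02.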

How the results depend on the processing

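The 6 medians over all old inserts moved by at most 0.10 under the 8 alternatives and stayed between -0.24 and 0.13. Counts past the threshold are given for 1KO against WT at days 0, 2 and 4 and then for 1KO+1CI against 1KO, and were 272, 227 and 230, and 171, 190 and 201 as reported. With a pseudocount of 0.1 they were 707, 653 and 646, and 589, 512 and 578. With 0.01 they were 804, 718 and 722, and 647, 584 and 663. With at least 20 reads on average, chosen after seeing the data, they were 36, 33 and 27, and 22, 15 and 16. With a log2 threshold of 0.5 they were 972, 939 and 874, and 795, 802 and 792, and with 2 they were 6, 10 and 6, and 3, 3 and 1. The share of higher copies in 1KO against WT at day 2 was 41.9% as reported and 30.3% with at least 20 reads. The MIR class in 1KO+1CI against 1KO at day 0 was at -0.07 by the mean and at 0.0444 as the median over copies.

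In the fit, 5 copies were called between 1KO+1CI and WT as reported, beside 303 of all 38385 copies. The counts were 9 with a pseudocount of 0.1 (beside 521), 8 with 0.01 (beside 532) and 2 after rescaling over repeat copies (beside 112). Without the trend 0 were called (beside 2), and 243 of 2290 had an unadjusted p under 0.05, beside 3837 of 38385. With at least 20 reads 8 of 449 were called (beside 304 of 8490), and on family means 1 of 145 names (beside 2 of 1042). Between 1KO and WT the 5 became 0 without the trend, with 209 at an unadjusted p under 0.05, beside 3663 of 38385. On family means 1 of 145 names was called, beside 2 of 1042. With 1 day left out, 0 to 1 were called between 1KO and WT and 0 to 0 between 1KO+1CI and WT. An unadjusted p was then under 0.05 for 116 to 189 and 139 to 207, beside 2673 to 3511 and 2932 to 3514 of all 38385 copies. Between days 2 and 0 the 7, of which 4 were higher, stood beside 67 of all 38385 copies. They became 11 with at least 1 FPKM on average (beside 146 of 27648), 2 without the trend (beside 20) and 4 names on family means (beside 38 of 1042). After rescaling over repeat copies they became 10, of which 3 were higher, beside 136, of which 17 were higher. With at least 20 reads they became 42 of 449, beside 2829 of 8490 listed copies. With at least 20 reads and rescaling over repeat copies together, also chosen after seeing the data, 48 of 449 were called between days 2 and 0. Between 1KO and WT 2 were called, and of all 8490 such copies the counts were 2400 and 285. Between days 4 and 0 the 36, beside 563 of all copies, became 21 without the trend (beside 310) and 8 names on family means (beside 53 of 1042). The cause of these changes was not tested. Between 1KO+1CI and 1KO every alternative called 0, with 112 at an unadjusted p under 0.05 as reported, beside 1732 of 38385. The fit of line and day already compares the lines within each day. The labels give no replicate numbers, so no further pairing was made. Depth limits what single copies can show, since 60.8% of those with recovered reads had fewer than 10 reads on average.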
